A study of Mus musculus with 2756 samples.

Results

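Cortical interneurons were the 8.82% of 2756 sequenced mouse neocortical cells whose label places them in the submitters' clusters IN.1 (5.15% of the 2756) or IN.2 (3.66%). The cells of each cluster are counted by sample below. The series followed cohorts of cells born on a chosen embryonic day. FlashTag, a fluorescent label taken up by progenitors that divide along the ventricle, was injected on embryonic day E12, E13, E14 or E15, and the brightest cells of the putative somatosensory cortex were sorted 1, 24 or 96 h later for SMART-seq full-length RNA sequencing of single cells on a microfluidic chip. No allele, drug or genotype was compared, and each of the 12 pairs of day and time was 1 sample, since the labels name no animal or litter. The groups used most were E15 cells at 1 h (collected on E15) and the 4 cohorts at 96 h, injected on E12, E13, E14 and E15 and collected on E16, E17, E18 and E19. The excitatory neurons of the same 96 h dissections, labelled N4d (693 cells), served as the reference population.

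Cortical interneurons are not made in the cortex. They arise in the ganglionic eminences of the ventral forebrain, mainly the medial (MGE) and caudal (CGE) eminences, and reach the cortex by tangential migration. There they release GABA, made by the enzymes Gad1 and Gad2, under a programme driven by the Dlx homeobox genes. Cells of the MGE keep Lhx6 and Sox6 and give rise mainly to parvalbumin and somatostatin cells, whereas cells of the CGE express Prox1, Nr2f2, Sp8 and Adarb2. The neighbouring lateral eminence (LGE) supplies projection neurons of the striatum, which express Ebf1, Isl1, Ikzf1, Foxp1 and Rarb. The injection day is used here only as the label of a cohort.

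The interneurons had between 64993 and 556745 counts each and a median of 3711 detected genes, beside 4326 genes in the other 2513 cells. Their median mitochondrial share was 5.25% of counts, and 9 of these cells had under 100000 counts. No cell shared its title or its counts with another. Counts were treated as reads and not as independent molecules. The intervals given for shares of cells cover counting error only, because the labels name no animal or litter.

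The share of interneurons was highest in the E12 cohort at 96 h and lowest in the E12 and E13 cohorts at 1 and 24 h. Each sample held between 4.86% (E14 1 h) and 10.9% (E15 1 h) of the 2756 cells. At 1 h no interneuron was found at E12, which allows a share of up to 1.59%, and the sample of E13 held 1 (0.483% of its cells), that of E14 6 (4.48%) and that of E15 33 (10.96%, 95% Clopper-Pearson interval 7.67 to 15.05%). At 24 h none was found at E12 or E13, which allows up to 1.12% and 1.35%, and the E14 and E15 samples held 6 (2.74%) and 3 (1.41%). At 96 h interneurons numbered 85 at E12 (34.8% of its cells, interval 28.9 to 41.2%), 44 at E13 (16.5%, 12.2 to 21.5%), 30 at E14 (11.8%, 8.11 to 16.4%) and 35 at E15 (14.8%, 10.5 to 19.9%). The E12 interval at 96 h did not overlap those of the later days, and the intervals of E13, E14 and E15 overlapped each other. Collection time and run cannot be told apart, because no run code held cells of more than 1 collection time. Each share is that of 1 sorted sample, so its interval holds no spread between embryos.

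**Figure D1:**
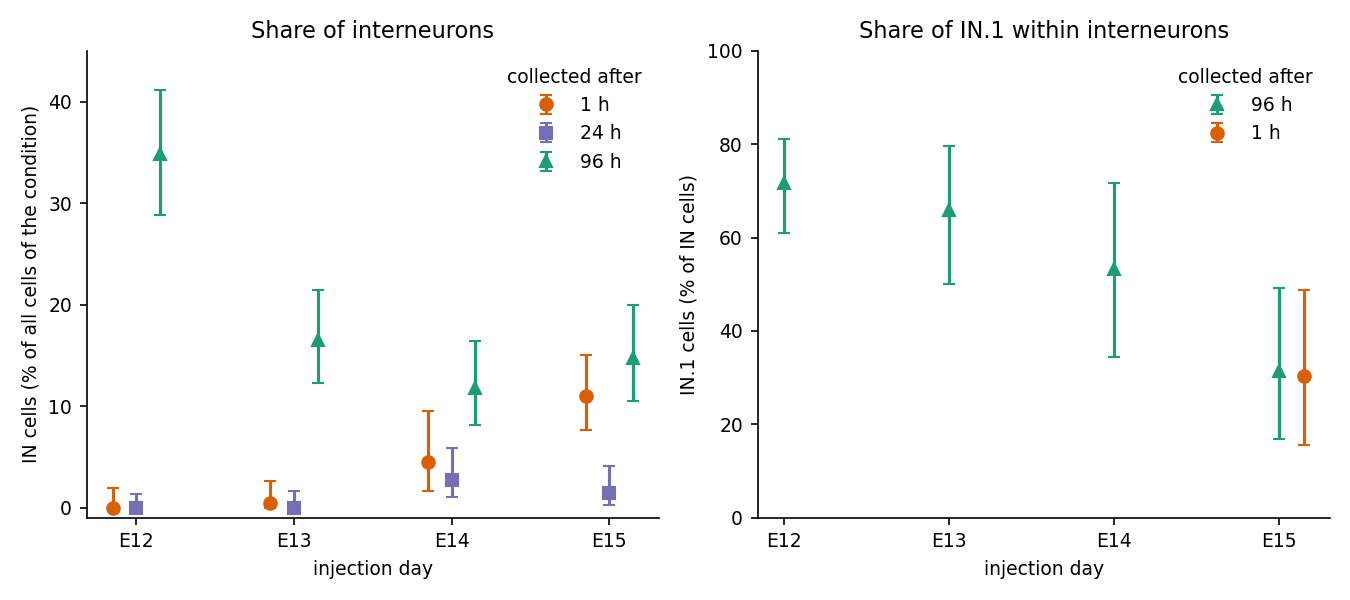
Share of interneurons among all cells of each sample (left, percent) and of IN.1 among interneurons (right, percent) by injection day; colours and symbols give the time of collection and bars the 95% Clopper-Pearson interval of 1 sample. Interneurons reach 34.8% at E12 96 h, and the IN.1 share is 71.8% at E12 and 31.4% at E15 among the 96 h samples.

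The share of IN.1 was lower in later cohorts. IN.1 held 61 of 85 interneurons at E12 96 h (71.8%, interval 60.96 to 81%), 29 of 44 at E13 (65.9%, 50.1 to 79.5%), 16 of 30 at E14 (53.3%, 34.3 to 71.7%) and 11 of 35 at E15 (31.4%, 16.9 to 49.3%). The E12 and E15 intervals did not overlap. Among the 33 interneurons of E15 1 h, 10 were IN.1 (30.3%, 15.6 to 48.7%). The 6 cells of E14 1 h comprised 5 IN.1 cells and 1 IN.2 cell, and the single E13 cell at 1 h and all 9 cells at 24 h were IN.1.

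The label was checked against Gad1, Gad2, Dlx1 and Lhx6. Gad1, a GABA-synthesising enzyme, was summed over the interneurons of a sample and scaled as counts per 1000000 counts of that sum (CPM). It stood at 240, 275.7, 430 and 451 CPM in the E12, E13, E14 and E15 samples of 96 h and at 236.6 CPM at E15 1 h, against 18.6 ± 6.96 CPM (SD, n = 4 samples) in the excitatory neurons. Gad2, its partner enzyme, stood at 390, 359, 329 and 663 CPM at 96 h and at 529 CPM at E15 1 h, against 29.4 ± 10.7 CPM. Dlx1, a homeobox gene of ventral forebrain neurons, stood at 298.3, 319, 499 and 647 CPM at 96 h, with 38.7 ± 14.7 CPM in excitatory neurons. Each of these interneuron sums lay above all 4 excitatory sums for these 3 genes. The share of all genes with such a separation was not computed. The sub-clusters were made by the submitters from these same counts, so every difference between clusters here is a description and carries no test.

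In single cells a count of Gad2 was found in 80.9% of the interneurons at 96 h and in 45.02% of the 693 excitatory neurons, at median depths of 274536 and 344845 counts. A level of 100 CPM or more was reached by 58.8% and 5.63% of those cells. Thinned to 50000 counts per cell, the shares with a Gad2 count were 68.6% and 18.2%. The excitatory share is the background of such a detection. Conversely, Neurod6, a gene of excitatory neurons, had a count in 96.9% of these interneurons and reached 100 CPM in 37.6% of them, beside 89.5% of excitatory neurons. At 500 CPM or more it was found in 38 interneurons of 96 h. No doublet caller was run, and the part of these 38 cells in the results was not tested.

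IN.1 was the Lhx6 population. Lhx6, the LIM homeobox gene that specifies MGE interneurons, stood at 666, 767, 912 and 822 CPM in the IN.1 sums of E12, E13, E14 and E15 at 96 h and at 1118 CPM in that of E15 1 h. In IN.2 it stood at 24.7, 3.13, 50.2 and 0.150 CPM at 96 h and at 0.318 CPM at 1 h. All 5 IN.1 sums were thus more than an order of magnitude above all 5 IN.2 sums, and the median log2 ratio of IN.2 over IN.1 was -7.54 with a range of -9.73 to -4.16. Of single IN.1 cells at 96 h, 86.3% had a count of Lhx6 and 69.2% reached 100 CPM, whereas 3 of 77 IN.2 cells (3.90%) reached it. At E15 1 h, 9 of 10 IN.1 cells and none of 23 IN.2 cells reached it.

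Other genes of the MGE lineage followed. Of 11 list genes in the table (Nkx2-1 and Lhx8 were not analysed here), 9 had a mean of 50 CPM or more over the 10 sums, and Lhx6, Sox6, Satb1, Maf, Nxph1 and Npy were among those higher in IN.1 in all 5 samples. Among all 4212 genes at that mean, 4.30% were higher in IN.1 in all 5 and 4.56% higher in IN.2. Nxph1, a neurexin ligand of inhibitory synapses, stood at 298.6, 264.7, 295.3 and 271.3 CPM in IN.1 at 96 h and at 26.95, 0, 6.84 and 11.7 CPM in IN.2. Maf, a transcription factor of MGE interneurons, stood at 485, 539, 589 and 575 CPM against 113.4, 197.7, 224.8 and 135.96 CPM. Npy, a neuropeptide, stood at 277.1, 102.7, 349 and 252.5 CPM against 24.9, 0.962, 86.7 and 0.299 CPM. The groups did not overlap for any of these 3 genes. Some margins were narrow. Sox6, which acts downstream of Lhx6, stood at 54.1 CPM in IN.1 and 37.7 CPM in IN.2 of E15 96 h, and Satb1, a chromatin organiser, at 308 and 252.2 CPM at E12.

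Genes outside that list separated IN.1 as well. Ackr3, the scavenging chemokine receptor used by migrating interneurons, stood at 247.5, 122.6, 44.96 and 413 CPM in IN.1 at 96 h against 59.2, 0, 1.77 and 0 CPM in IN.2. Gria1, an AMPA receptor subunit, stood at 704, 773, 647 and 465 CPM against 105.9, 21.6, 20.8 and 17.9 CPM. Cacng3 and Syndig1, both auxiliary proteins of AMPA receptors, had median log2 ratios of -6.29 and -6.39. Id3, an inhibitor of basic helix-loop-helix factors, Dgkg, a diacylglycerol kinase, Tshz3, a zinc-finger homeobox gene, Pcdh19, a protocadherin, Thbs1, a secreted matrix protein, Rbms3 and Kctd12 completed the 15 genes named for IN.1, at median log2 ratios between -6.41 and -2.93. Dgkg came close between the sub-clusters at E13, with 151.9 CPM in IN.1 and 125.8 CPM in IN.2.

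IN.2 carried CGE genes at 96 h. Prox1, a homeobox gene kept by CGE interneurons, stood at 446, 452, 419 and 217.5 CPM in IN.2 of E12, E13, E14 and E15 and at 38.3, 0.311, 0.260 and 9.57 CPM in IN.1. Adarb2, an RNA-editing family gene and CGE marker, stood at 350, 392, 445 and 116.1 CPM against 16.6, 1.87, 1.56 and 11.04 CPM. Nr2f2, a nuclear receptor, stood at 241.8, 232.05, 230 and 63.9 CPM against 22.4, 34.7, 0.780 and 1.10 CPM. For all 3 the E15 sum was the lowest IN.2 sum of 96 h, and it still lay above every IN.1 sum of 96 h. Prox1 reached 100 CPM in 13 of 24 IN.2 cells at E12 (54.2%, interval 32.8 to 74.4%) and in 6 of 24 at E15 (25.0%, 9.77 to 46.7%).

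Of 9 CGE list genes in the table (Vip was not analysed here), 6 had the required mean. Prox1, Nr2f2, Npas1, Adarb2 and Cnr1 were higher in IN.2 in all 5 samples, beside 4.56% of all genes. Npas1 was near 0 in both sub-clusters of E15 1 h, at 1.11 CPM in IN.2 and 0.808 CPM in IN.1. Sp8, a zinc-finger factor of LGE and CGE cells, stood at 63.05, 112.5, 53.2 and 124.9 CPM in IN.2 at 96 h and at 0.368 CPM or less in IN.1. Htr3a, the serotonin receptor subunit of CGE interneurons, stood at 124.01, 79.6, 76.5 and 68.8 CPM in IN.2 at 96 h and at 1.75 CPM in IN.2 of E15 1 h. Calb2, the calretinin gene, was at or near 0 in every sum, with 9.38 CPM in IN.2 of E14 96 h as the highest. Cnr1, a cannabinoid receptor, was also present in excitatory neurons, at 358 ± 54.04 CPM (SD, n = 4) beside 291.1 to 795 CPM in IN.2 at 96 h.

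Beyond the list, Pbx3, a homeobox cofactor, stood at 523, 59.6, 378 and 266.7 CPM in IN.2 at 96 h against 18.6, 6.37, 2.34 and 29.4 CPM in IN.1. Pax6, a homeobox gene of progenitors and of some ventral neurons, stood at 230.9, 67.1, 58.8 and 364 CPM against 12.4, 13.99, 1.82 and 22.8 CPM. St18, a zinc-finger factor, Pdzrn3, an E3 ligase, and Chd7, a chromatin remodeller, had median log2 ratios of 5.92, 3.47 and 3.17. Pls3, Pik3c3, Arrdc4, Vstm2a, Zfp846 and Fam76b were the other genes named for IN.2, at median log2 ratios of 2.26 to 5.80. Several of these were close at single samples, with log2 ratios of 0.17 for Arrdc4 at E15 1 h and 0.24 for Chd7 at E13 96 h.

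**Figure D2:**
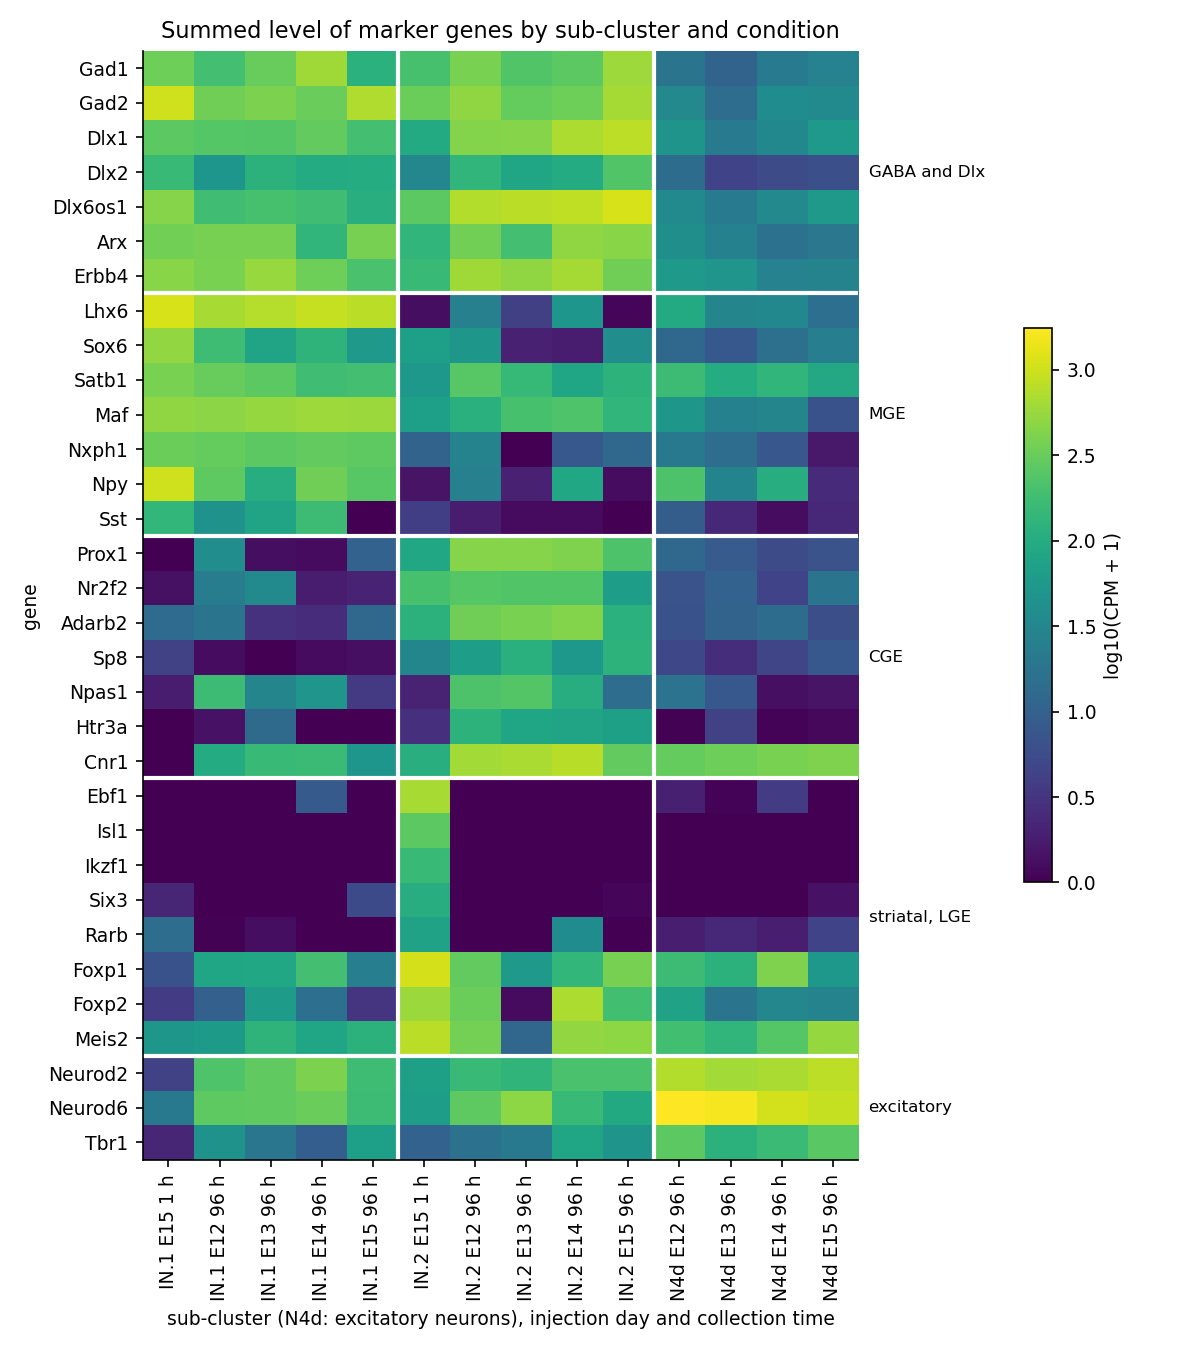
Level of marker genes, log10(CPM + 1) of the summed counts, in IN.1, IN.2 and excitatory neurons (N4d) of each sample; each column is 1 sum of cells. Lhx6 reads 666 CPM or more in all IN.1 columns, and Ebf1, Isl1, Ikzf1 and Six3 stand at 102.7 to 655 CPM in the IN.2 column of E15 1 h and at 7.28 CPM or less in every other column.

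Most of the 23 IN.2 cells of E15 1 h went against the label of a cortical interneuron. Ebf1, a transcription factor of striatal projection neurons, stood at 655 CPM in these 23 cells, at 0 in the IN.2 sums of all 4 days at 96 h and at 0 in the 10 IN.1 cells of the same sample. A count of Ebf1 was found in 16 of the 23 cells (69.6%, interval 47.1 to 86.8%), with 15 at 100 CPM or more, in 1 interneuron of 96 h (0.515%), and in 36 of the other cells of E15 1 h (13.4%), of which 4 reached 100 CPM. Median depths were 275527, 274536 and 296633 counts. Thinned to 50000 counts the shares were 65.2%, 0.515% and 6.72%. Isl1, a LIM homeobox gene of striatonigral neurons, was found in 13 of the 23 cells, in no interneuron of 96 h and in 27 of the other cells of the sample (10.1%). Ikzf1 was found in 10 of the 23 and Six3 in 13 of the 23, against 0 and 3 interneurons of 96 h (0% and 1.55%).

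The broader LGE and striatal genes were high in the same cells. Foxp1 stood at 1097 CPM in IN.2 of E15 1 h and at 290.5, 54.6, 138.6 and 378 CPM in IN.2 at 96 h. Meis2 stood at 811 CPM against 367, 10.8, 520 and 498 CPM, and Foxp2 at 565 CPM against 329, 0.240, 694 and 184.3 CPM, so that Foxp2 overlapped the 96 h range. These 3 genes are not restricted to ventral cells: Meis2 reached 100 CPM in 18 of the 23 cells (78.3%) and in 73.5% of the other cells of the sample, whereas Foxp1 did so in 78.3% and 20.1% and Foxp2 in 60.9% and 17.2%. Rarb, a retinoic acid receptor of striatal neurons, stood at 73.5 CPM against 0, 0, 37.00 and 0 CPM. Mature striatal genes were low, with Penk at 5.56 CPM and Ppp1r1b at 11.1 CPM, and Tshz1 at 34.6 CPM lay within its IN.2 range of 31.02 to 410 CPM at 96 h.

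Counted per cell, 19 of the 23 had 3 or more of the 12 striatal and LGE genes at 100 CPM or more, with a median of 5 genes. At 96 h the median was 1 gene and 12 of 77 IN.2 cells had 3 or more. Among the other cells of E15 1 h, 30 had 3 or more (11.2%). By contrast 6 of the 23 cells had 2 or more of the 9 CGE genes, against 58 of 77 IN.2 cells at 96 h. Among the IN.2 cells of E15 96 h alone, 12 of 24 had 2 or more. In 4 of the 23 the CGE genes outnumbered the striatal and LGE genes, and in 19 the reverse held. In IN.2 of E15 96 h the CGE genes outnumbered them in 14 of 24 cells, and the reverse held in 8. General interneuron genes were thinner too, since Dlx1 had a count in 7 of the 23 cells (30.4%) and in 67 of 77 IN.2 cells at 96 h (87.01%), whereas Gad2 had one in 18 of 23 (78.3%) and 62 of 77 (80.5%). The 1 IN.2 cell of E14 1 h had 7 CGE genes and none of the 12 striatal and LGE genes. The 23 cells are referred to as the IN.2 cells of E15 1 h. Without that sample, 696 genes in place of 373 had 1 direction between the sub-clusters in every sample, over 4 samples in place of 5.

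**Figure D3:**
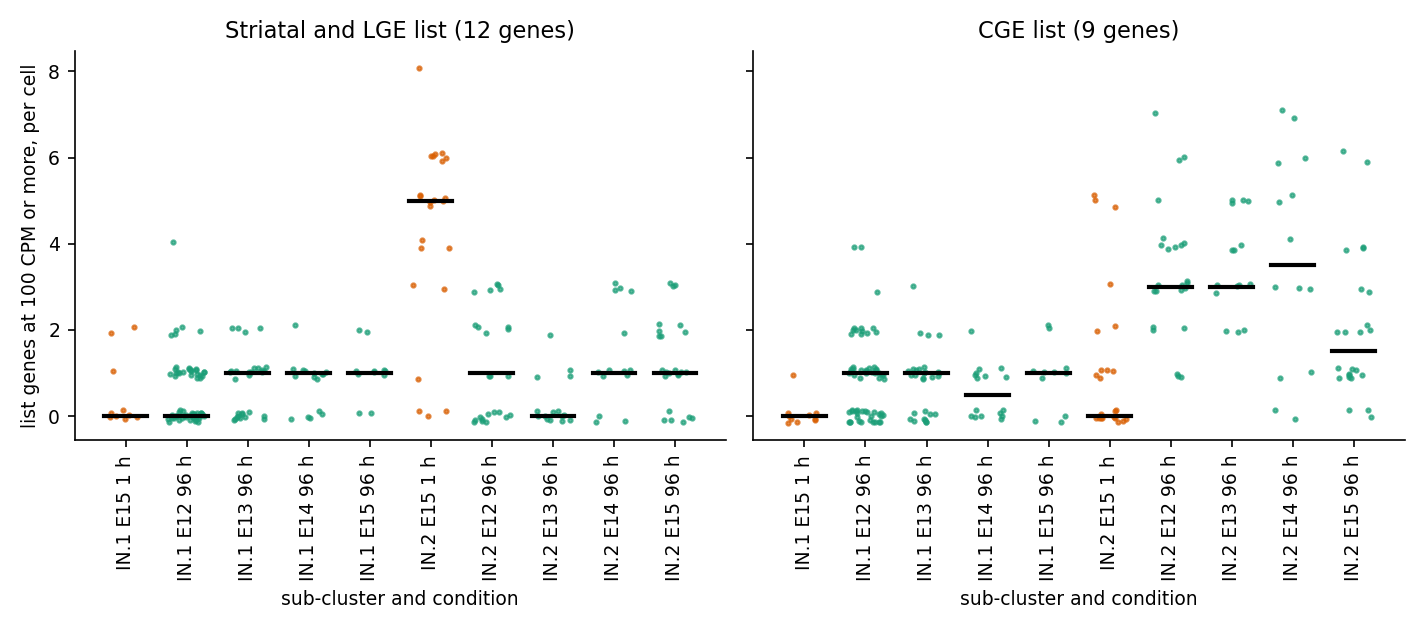
Number of striatal and LGE list genes (left, of 12) and CGE list genes (right, of 9) at 100 CPM or more in each cell, by sub-cluster and sample, with E15 1 h in orange, 96 h in green and black bars at the median; points are spread slightly at random. The IN.2 cells of E15 1 h have a median of 5 striatal and LGE genes, and IN.2 cells at 96 h have medians of 0 to 1.

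Sequences upstream of marker genes were read because Dlx proteins and most other homeodomain factors recognise a short AT-rich core. The palindrome TAATTA, which reads the same on both strands, was searched in the 250 bases before each RefSeq gene start (GRCm38.p6). It lay in 4.84% of all 32851 such windows and in 2 of 12 windows of 9 interneuron core genes (both of Dlx6os1). It lay in 0 of 23 windows of 9 MGE genes and in 2 of 13 windows of 7 CGE genes (Adarb2 and Sp8). Of 12 windows of 8 striatal and LGE genes, 1 held it (Foxp1). A window of Dlx6os1 and the one of Adarb2 are shown, with the core in capitals and 5′ to 3′ on the gene's strand. Adarb2 separated the sub-clusters in every sample compared, and Dlx6os1 did so at 96 h only. Dlx6os1 is a non-coding RNA transcribed against Dlx6 and the window precedes a start inside the gene, on the minus strand at chr6:6861684-6861933. Adarb2 marks IN.2, and its window lies on the plus strand at chr13:8202616-8202865. A match is a description of the letters and not a measured binding site.
Dlx6os1: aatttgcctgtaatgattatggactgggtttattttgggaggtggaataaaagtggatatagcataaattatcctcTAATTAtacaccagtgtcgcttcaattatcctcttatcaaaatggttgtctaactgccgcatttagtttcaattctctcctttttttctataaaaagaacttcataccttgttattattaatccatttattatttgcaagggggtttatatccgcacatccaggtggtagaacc
Adarb2: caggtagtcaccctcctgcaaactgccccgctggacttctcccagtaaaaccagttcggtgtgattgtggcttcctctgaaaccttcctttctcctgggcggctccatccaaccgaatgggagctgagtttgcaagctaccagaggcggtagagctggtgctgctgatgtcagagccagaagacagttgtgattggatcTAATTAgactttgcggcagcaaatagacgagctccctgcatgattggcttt

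The levels of Dlx6os1 divided the sub-clusters at 96 h but not at 1 h. It stood at 745, 808, 861 and 1110 CPM in IN.2 and at 175.2, 196.2, 179.1 and 107.5 CPM in IN.1 at 96 h, while at E15 1 h it stood at 263.6 CPM in IN.2 and 447 CPM in IN.1. The gene lies at chr6:6820189-6871592 and overlaps Dlx6 on the other strand, so reads of the pair could not be told apart without strand. Dlx6 itself was listed at 3.85 to 44.4 CPM in IN.2 at 96 h.

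Neuropeptides marked small parts of the population. Sst, the peptide of one MGE subtype, stood at 45.3, 77.4, 166.9 and 0 CPM in IN.1 of E12, E13, E14 and E15 at 96 h, and 9 IN.1 cells (7.69%) reached 100 CPM, beside 7 of 693 excitatory neurons (1.01%). At E15 1 h it stood at 41.4 CPM, with 1 of 33 cells at 100 CPM or more. The smaller samples of earlier times had higher sums, with 766 CPM in the 6 cells of E14 1 h, where a single IN.1 cell had a count, and 274.5 and 724 CPM in the 6 and 3 cells of E14 and E15 at 24 h. Calb1, the calbindin gene, reached 100 CPM in 11 IN.1 cells (9.40%) and 1 of 77 IN.2 cells (1.30%) at 96 h. Pnoc, the prepronociceptin gene, did so in 18 of 77 IN.2 cells (23.4%) and 1 IN.1 cell (0.855%). Cort and Crh were at 12.2 CPM or less in the whole-interneuron sums of 96 h, and Pvalb, Tac1 and Pdyn were not analysed here.

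The trend over injection day at 96 h was fitted across 8934 genes on the 4 interneuron sums, with edgeR's quasi-likelihood test. No gene passed an adjusted p of 0.05 (0% of 8934), 2.83% of genes had an unadjusted p under 0.05, and DESeq2 called 65 genes (0.728%), 26 higher and 39 lower on later days. The E12 and E13 samples of 96 h shared 1 run code and the E14 and E15 samples another, so the trend is in part a contrast of runs. Later injection days at 96 h were also later days of collection (E16 to E19), so cohort and embryo age cannot be told apart. With the run as a block, which leaves 1 residual degree of freedom, edgeR also called no gene, and the 12 genes named for this trend kept the sign of their slope. Since no gene passed, values are given for the genes with the smallest p in each direction. Ccnd2, a cyclin of cycling progenitors, stood at 83.4, 74.5, 231.98 and 1128 CPM from E12 to E15, a fitted log2 slope of 1.29 ± 0.21 (SE) per day with an edgeR adjusted p of 0.588. The E15 sum stood apart from the other 3. It came from IN.2, with 69.3, 146.7, 427 and 1562 CPM, whereas IN.1 had 88.4, 27.8, 31.97 and 59.6 CPM, and the slope in IN.1 alone was -0.13. In excitatory neurons it stood at 70.1, 79.3, 52.7 and 172.5 CPM.

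At E15 96 h, 11 of 24 IN.2 cells reached 1000 CPM of Ccnd2, against 2 of 14 at E14, 1 of 15 at E13 and 0 of 24 at E12, and the highest cell gave 26.6% of the E15 sum. Of those 24 cells, 1 had 3 or more of the 20 list genes of G2 and M phase at 100 CPM, and it was among the 11. At E15 1 h, 8 of 33 interneurons (24.2%) had 3 or more, beside 52.99% of the other cells. The summed level of the 20 genes was 958 CPM in IN.2 of E15 96 h against a median of 66.1 CPM over the 4 days, but 1 cell gave 87.9% of those counts, and without it the level was 124.4 CPM. In the fit, 4 of the 20 passed the filter on low counts.

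Tiam2, an exchange factor for Rac involved in neuronal migration, stood at 23.7, 54.7, 105.7 and 257.2 CPM, higher on each later day, at a log2 slope of 1.14 ± 0.21 (edgeR adjusted p = 1.00). In excitatory neurons it stood at 176.3, 226.2, 163.1 and 105.6 CPM. Dlx6os1 stood at 326, 437, 525 and 821 CPM (slope 0.44 ± 0.11), and its slope in IN.1 alone was -0.18. Nedd4, a ubiquitin ligase, stood at 845, 1106, 1406 and 1796 CPM. Hmgb2, a chromatin protein of dividing cells, stood at 18.8, 19.5, 54.8 and 217.7 CPM, and Fabp7, a fatty acid binding protein of radial glia, at 44.6, 67.97, 78.4 and 358 CPM. For both genes the E15 sum stood above the other 3. Hmgb2 stood at 6.58, 43.3, 82.9 and 288.5 CPM in IN.2 and at 23.2, 4.20, 26.0 and 43.4 CPM in IN.1. Fabp7 in excitatory neurons stood at 48.3, 66.02, 200 and 459 CPM over the same days.

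Reln had the smallest p of the genes that were lower on later days. It encodes Reelin, the secreted protein of Cajal-Retzius cells and later of some interneurons, and stood at 293.2, 122.6, 17.3 and 5.53 CPM, lower on each later day, at a log2 slope of -2.00 ± 0.27 per day (edgeR adjusted p = 0.472). In IN.1 it stood at 379, 108.2, 0 and 0.368 CPM and in IN.2 at 52.6, 34.2 and 7.63 CPM at E12, E14 and E15, with its highest IN.2 sum at E13. Reelin is shared with Cajal-Retzius cells, whose other list genes Lhx5, Calb2 and Nhlh2 were at 8.13 CPM or less in the whole-interneuron sums of 96 h and of E15 1 h. Ndnf, the remaining list gene in the table, stood at 12.3 CPM at E12 96 h, where Reln was also highest, and at 0.106 CPM or less in the other 4 of these sums. Their part in the Reln values was not tested. In excitatory neurons Reln stood at 20.6, 4.21, 4.87 and 0.544 CPM. Of 8934 genes, 3.12% were higher and 4.00% lower on each later day.

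Sox11, a factor of young neurons, stood at 7538, 6149, 5215 and 4179 CPM, with a slope of -0.26 ± 0.04 (edgeR adjusted p = 0.485), and excitatory neurons ran from 6017 to 4323 CPM over the same days. Syt1, the synaptic calcium sensor, stood at 611, 254.7, 244.3 and 121.8 CPM. Gria1 stood at 546, 478, 330 and 146.98 CPM, Dgkg at 188.6, 141.6, 28.2 and 0.532 CPM, and Arnt2, a partner of activity-regulated factors, at 336, 271.4, 180 and 86.1 CPM. Gria1 and Dgkg are genes of IN.1, whose share of cells was 71.8% at E12 and 31.4% at E15. The part of that share in the slopes was not tested. Within IN.1, Gria1 stood at 704, 773, 647 and 465 CPM.

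**Figure D4:**
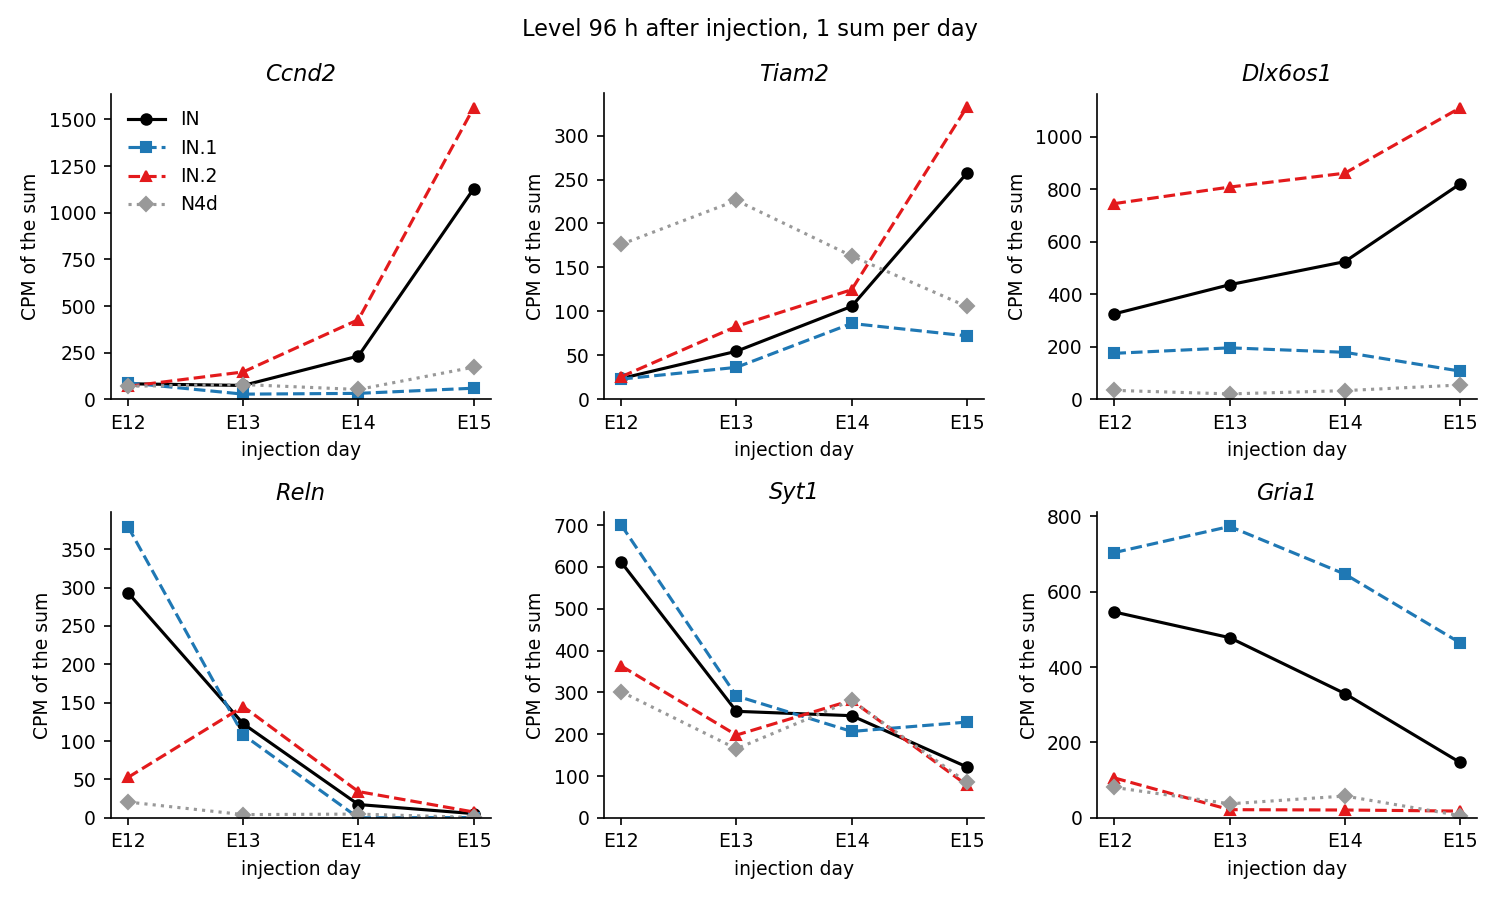
Level of 6 genes 96 h after injection (CPM of the summed counts, 1 sum per injection day) in all interneurons, IN.1, IN.2 and excitatory neurons (N4d). Ccnd2 stands at 1562 CPM in IN.2 and 59.6 CPM in IN.1 at E15, and Reln goes from 293.2 CPM at E12 to 5.53 CPM at E15 in all interneurons.

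By list, of 13 interneuron core genes tested, 3 had an unadjusted p under 0.05 and were higher on later days (Gad1, Dlx1 and Dlx6os1) and none was lower, beside 1.49% and 1.34% of all genes, and the median slope was 0.25 per day against 0.00 for all genes, with 0.13 within IN.1 and 0.12 within IN.2. The 11 MGE genes had a median slope of -0.36, beside 0.00 for all genes, and it was -0.01 within IN.1 and -0.22 within IN.2. IN.1 made up 71.8% of interneurons at E12 and 31.4% at E15, and the part of that share was not tested. Of 8 CGE genes tested, Npas1 alone had such a p and was lower, at a slope of -1.19 ± 0.35, standing at 180, 110, 77.1 and 10.2 CPM. Meis2, with such a p, stood at 139.3, 80.9, 304 and 389 CPM. Of 10 glutamate receptor genes, Gria1 and Gria4 had such a p and were lower, and of 9 apical progenitor genes, Fabp7 and Slc1a3 were higher. None of these passed the adjusted threshold over all genes.

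The day trend of interneurons was set against that of excitatory neurons in the same 4 samples. No gene of 10094 differed in slope at an adjusted p of 0.05 with edgeR (0%), 395 (3.91%) had an unadjusted p under 0.05, and DESeq2 called 34 (0.337%), 12 with the higher slope in interneurons. Of all genes, 1.60% had such a p with the higher slope in interneurons and 2.32% with the lower. Tiam2 had the smallest p, with a difference of 1.43 ± 0.22 log2 per day (edgeR adjusted p = 0.864), and Ccnd2 differed by 1.00 ± 0.23, which was -0.39 with IN.1 alone. Npy differed by 1.73 ± 0.42, with 210.6, 62.8, 216.3 and 73.2 CPM in interneurons and 217.8, 28.3, 105.5 and 1.41 CPM in excitatory neurons, and Maf by 0.81 ± 0.21. Abracl (0.66) and Anapc13 (0.63), a subunit of the anaphase-promoting complex, came next.

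In the other direction Xist, the RNA that coats the silent X chromosome of female cells, differed by -0.68 ± 0.13, with 849, 1077, 228.6 and 292.4 CPM in interneurons and 442, 769, 296.9 and 651 CPM in excitatory neurons. Aff2 stood at 57.1, 38.7, 20.7 and 7.13 CPM in interneurons and stayed between 147.7 and 204.7 CPM in excitatory neurons. Rpap3, Mpped1, Hspa5, an endoplasmic reticulum chaperone, and Rap2a, a small GTPase, had differences of -1.48, -0.50, -0.60 and -1.36. The levels of these 4 genes in excitatory neurons moved by less over the days than in interneurons.

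The E15 cells labelled as interneurons at 1 h and 96 h were compared as 2 sums of 33 and 35 cells, with no replicate and hence no test. They were collected on E15 and E19, so time after injection and embryo age cannot be told apart. Of the 33 cells, 23 were IN.2 cells, and in 19 of these the striatal and LGE genes outnumbered the CGE genes. The median mitochondrial share of counts was 7.05% at 1 h and 5.29% at 96 h, and that of ribosomal protein genes 8.87% and 5.41%, whose part in the differences was not tested. Of 5189 genes with 50 CPM or more in the higher sum, 940 (18.1%) were at least 2-fold higher at 1 h and 1013 (19.5%) at least 2-fold lower, on the scale of log2(CPM + 1). The typical gene rested on few cells, since the highest cell gave a median of 29.9% of a gene's sum at 1 h and 28.4% at 96 h. Among interneuron core genes 11 of 13 reached 50 CPM, of which 0 were 2-fold higher and 5 were 2-fold lower at 1 h, at a median log2 ratio of -0.93. Within IN.1 that median was 0.91, and within IN.2 it was -1.56. The direction for this list thus turned with the sub-cluster.

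Dlx1 showed this split. It stood at 144.7 CPM at 1 h and 647 CPM at 96 h in all E15 interneurons, at 266.9 and 185.9 CPM in IN.1, and at 96.7 and 834 CPM in IN.2. Gad1 stood at 335 and 117.8 CPM in IN.1 and at 197.8 and 587 CPM in IN.2, and Gad2 at 1033 and 717 CPM in IN.1 and at 331 and 642 CPM in IN.2. Lhx6 in IN.1 stood at 1118 and 822 CPM, Sox6 at 518 and 54.1 CPM and Npy at 1018 and 252.5 CPM. IN.1 rested on 10 and 11 cells, so these values hold for those cells alone.

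Genes that were higher at 1 h in both sub-clusters included Foxo1, a forkhead factor, at 135.97 CPM against 0.106 CPM, with counts in 14 of 33 cells and 1 of 35 cells. Tmem132b, a neuronal membrane protein, stood at 168.6 and 0.851 CPM, with counts in 19 and 6 cells. Klhl12, a ubiquitin ligase adaptor, stood at 124.5 and 1.17 CPM (16 and 9 cells), and Rarb at 56.5 and 0 CPM (8 and 0 cells). Caln1, Mcat, Fam160b2, Sft2d2, Rbm19, Gpank1, Pml and Apool were the remaining genes named by size, and they rested on 3 to 9 cells at 1 h. Some stood near 0 in IN.1 at both times, with Caln1 at 0.404 and 0.368 CPM, Apool at 0.404 and 0 CPM and Sft2d2 at 2.83 and 0 CPM. Foxo1 stood at 6.46 and 0 CPM in IN.1 and at 186.9 and 0.150 CPM in IN.2. Mcat, Fam160b2, Rbm19, Gpank1, Klhl12 and Pml stood at 95.3 CPM or more in IN.1 at 1 h. The E14 sum of 1 h (6 cells) did not share the higher level for 10 of these 12 genes, which stood there at 2.59 CPM or less. The exceptions were Fam160b2 (44.1 CPM) and Klhl12 (69.99 CPM). A single cell gave 98.9% of the Sft2d2 sum and 81.2% of the Rbm19 sum.

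Other genes were lower at 1 h in both sub-clusters. Ap4e1, a vesicle adaptor subunit, stood at 0.456 and 70.5 CPM (4 and 13 cells), Clstn2, a synaptic cadherin, at 0.228 and 57.96 CPM (2 and 18 cells), and Trim36 at 0.684 and 89.2 CPM (2 and 9 cells). The E14 sum of 1 h did not share this for Ap4e1, Clstn2 and B3galnt1, which stood there at 203.3, 156.3 and 125.2 CPM. Gdf10, Krcc1, Eri1, Trmt44, Vit, Gpn3, B3galnt1 and Trim23 were also named by size. Of the Vit sum 98.99% and of the Gdf10 sum 83.5% came from 1 cell each. In IN.1, Vit stood near 0 at both times, at 0 CPM at 1 h and 1.47 CPM at 96 h.

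The 1 h and 96 h interneurons were also tested together, over the 2 sums of 1 h with 5 or more cells (E14 and E15) and the 4 sums of 96 h, with the injection day as a term. Embryos of 96 h were older at collection (E16 to E19) than those of 1 h (E14 and E15). Time after injection, embryo age and run therefore cannot be told apart. No gene of 9592 passed an adjusted p of 0.05 with edgeR (0%), 860 (8.97%) had an unadjusted p under 0.05, and DESeq2 called 3.04%, in both directions. Without the E15 sum, which holds the IN.2 cells described above, edgeR called 1291 genes from the 6 cells of E14 alone against 96 h. With IN.1 cells only it called 1 gene, Sox11. The median log2 difference of all genes was -0.14, and -0.04 with DESeq2 size factors, so small differences depend on the scaling.

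Sox11 stood at 10068 and 6537 CPM in the E14 and E15 sums of 1 h and at 7538, 6149, 5215 and 4179 CPM at 96 h, so that the groups overlapped. Its fitted difference with the injection day, but not the embryo age, held constant was 1.06 ± 0.18 (edgeR adjusted p = 0.264). In IN.1 of E15 it stood at 10118 CPM at 1 h and 5684 CPM at 96 h. Ina, a neurofilament protein, stood at 963 and 529 CPM against 369, 441, 220 and 156.8 CPM, and Eef1g, an elongation factor, at 1135 and 833 CPM against 537, 449, 303 and 300 CPM. For both genes the 1 h sums lay above all 96 h sums, as for 6.94% of all genes. BC017643, Pygo2 and Got2 had fitted differences of 5.11, 6.06 and 3.22. The groups overlapped for Pygo2, at 245.5 and 32.8 CPM at 1 h against 69.4, 3.21, 7.31 and 0.425 CPM at 96 h.

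Lower at 1 h were Egr1, an immediate early gene, at 58.1 and 78.5 CPM against 186.7, 343, 332 and 540 CPM, and Nfix, a nuclear factor of maturing neurons, at 53.7 and 136.4 CPM against 264.6, 415, 414 and 492 CPM. Nfib, its paralog, stood at 542 and 862 CPM against 1412, 1681, 1399 and 1972 CPM. Dnm2, a dynamin, stood at 1.85 and 2.85 CPM against 82.2, 97.8, 83.5 and 86.4 CPM, and Zfp704 and Yam1 had fitted differences of -1.58 and -0.58. For each of these genes both 1 h sums lay below all 96 h sums, as for 14.7% of all genes. Egr1 in excitatory neurons of 96 h stood at 31.2 to 71.7 CPM.

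By list, Lhx6 was among the interneuron core genes with an unadjusted p under 0.05 and was higher at 1 h, beside 5.39% of all genes higher and 3.58% lower. Sst and Npy joined Lhx6 among 11 MGE genes, and Htr3a was the 1 of 8 CGE genes, lower at 1 h. Only 1 IN.1 cell had a count of Sst at E14 1 h, and 1 cell gave 94.8% of the Sst sum of E15 1 h. The median MGE difference was 0.69, with 0.68 in IN.1 alone and -2.15 in IN.2 alone, against -0.14 for all genes. IN.1 made up 83.3% of interneurons at E14 1 h, 30.3% at E15 1 h and 31.4 to 71.8% at 96 h. The part of this make-up in the differences was not tested. Lhx6 stood at 992 and 316 CPM at 1 h and at 497, 467, 476 and 237.5 CPM at 96 h, so that the groups overlapped. Of 13 GABA receptor genes, 9 were tested and 7 of these had a negative difference, as did 53.8% of all genes, and Gabbr2 alone had such a p. Of 16 voltage-gated channel genes tested, Scn2a1 and Kcnc1 had such a p and were lower. Of 10 excitatory neuron genes, Emx1 was higher and Neurod2 and Bhlhe22 lower at such a p, with Neurod2 at 32.2 and 50.6 CPM at 1 h and 205.6, 221.2, 302 and 193.5 CPM at 96 h, against 724 ± 86.2 CPM (SD, n = 4) in the excitatory neurons of 96 h. Their part in the interneuron differences was not tested.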

How the data were processed

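Single-cell RNA of 2756 cells was deposited by the authors as 1 table of raw read counts for 16441 genes, with no normalization. The submitters' processing notes name TopHat2 2.0.13, UMI-tools and the build GRCm38, and their roles and settings are not given in the sources used here. Cells were assigned to clusters and samples by the labels. Column totals were at least 0.987 of the labelled read number. Members and gene lists were chosen with earlier results of these data known.

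Counts were summed over the interneurons, each sub-cluster or the excitatory neurons of a sample and given as counts per 1000000 counts of the sum (CPM). Cells are not replicates, and the labels name no animals, so each sample counts once and p-values measure the spread between these samples, which includes that between runs. Genes with 10 CPM or more in 2 or more sums of at least 5 cells were tested with edgeR 4.0.16 (quasi-likelihood, TMM, Benjamini-Hochberg adjustment over all genes tested, threshold 0.05) in R 4.3.3, against injection day at 96 h, against collection time with the day as a term, and for the difference in day slope between interneurons and excitatory neurons with the sample as a block. DESeq2 1.42.0 was the alternative. The tests were checked on simulated data, where recovery of planted changes was required only at a lower spread than that of these sums. The common spread (biological coefficient of variation) of these sums was 77.2% for the day slope, 97.5% for collection time and 66% for the difference in slope. A count of 0 genes called therefore does not show that no gene changed. Ratios without a test used log2(CPM + 1), which understates the change of low genes. Shares have 95% Clopper-Pearson intervals, a share of 0 has a limit of 3 counts, and thinned cells were drawn to 50000 counts. Other values were computed with Python 3.11.15, numpy 2.4.6, pandas 2.3.3 and scipy 1.17.1.

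Genes were named by rule at a mean of 50 CPM or more: the 6 with the smallest p in each direction where no gene passed, the 15 with the largest median ratio between sub-clusters among those with 1 direction in all 5 samples, and for E15 the 12 with the largest ratio among those with 50 CPM in the higher sum and 1 direction in both sub-clusters. Predicted, ribosomal protein and mitochondrial genes were passed over. A few genes are not reported here.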

Additional observations from a re-analysis of the deposited data

Results flagged for a closer look

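In each group of 4 interneuron sums of 96 h, the gap of the highest or lowest sum to its neighbour was compared with the range of the group. It passed Dixon's limit for 16 genes, which were 15.1% of those checked, where chance gives about 1 in 20, and several of these genes had been named because the E15 sum differed. The E15 sum was the highest for Ccnd2 (1128 CPM), Fabp7 (358 CPM), Pax6 (265.7 CPM), Trim23 (60.2 CPM), Vit (52.6 CPM), Trmt44 (50.5 CPM) and Gdf10 (50.3 CPM). It was the lowest for Lhx6 (237.5 CPM against 467 to 497 CPM), Maf (262.9 CPM against 387 to 405 CPM) and Gpank1 (0.319 CPM against 18.3 to 21.04 CPM). Lhx6 within IN.1 stood at 822 CPM at E15, inside its range of 666 to 912 CPM, and Maf within IN.1 at 575 CPM, inside 485 to 589 CPM. The E14 sum was the highest for Rarb (18.7 CPM), Apool (7.83 CPM) and Caln1 (1.15 CPM), and the E12 sum for Pygo2 (69.4 CPM), Pml (5.25 CPM) and Sft2d2 (1.40 CPM). The count of Rarb came from 1 of 14 IN.2 cells of E14.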

How the results depend on the processing

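No paired analysis was possible because the labels give no replicate number or animal that pairs samples across days or times. The difference in slope did keep each sample as a block, and edgeR called 0 genes with and without it, as it did for the day slope with the run as a block. Over the alternatives run, edgeR called no gene for the day slope, the collection time or the difference in slope, except as follows. For the day slope DESeq2 called 65 genes (0.728% of those tested), IN.2 cells only gave 1 (0.0121%), and leaving out 1 sample at a time gave 0 to 0.0123%, the latter being 1 gene without E12. For collection time DESeq2 called 3.04%, IN.1 cells only gave 1 gene (0.0113%), and leaving out 1 sample gave 0 to 14.1%, the latter being 1291 genes without E15 1 h, which leaves 6 cells at 1 h. For the difference in slope DESeq2 called 34 genes (0.337%), and leaving out 1 sample gave 0 to 0.0307%, the latter being 3 genes without E13. The cause of these differences was not tested. With IN.1 cells only, the slope was -0.13 for Ccnd2 and -0.18 for Dlx6os1, and the difference from excitatory neurons was -0.39 for Ccnd2 and -0.12 for Abracl. Among settings chosen after seeing the data, 3446 genes in place of 1953 were 2-fold apart between 1 h and 96 h at E15 with IN.1 alone (10 and 11 cells), and 696 genes in place of 373 had 1 direction between sub-clusters over the 4 samples of 96 h, where fewer samples had to share it. Thinning moved 14 of 40 shares of cells beyond their interval. The number of cells per sum, at most 85, limits every level given.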
